A study of Mus musculus with 24 samples.

Results

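The 9 inflammasome and pyroptosis genes described here are Nlrp3, Nlrp1b, Nlrc4, Aim2, Pycard, Casp1, Casp4, Gsdmd and Nek7. They were taken by name from a table of 24273 genes measured by RNA sequencing in mouse bone marrow-derived macrophages (BMDMs), macrophages grown from bone marrow in L-cell conditioned medium. Each name matched 1 row, and all 9 genes were among the 13901 that passed the filter on low values. The C57BL/6 cells had 2 genotypes, LysM-Cre, which served as the control, and FosKO (LysM-Cre Fos-fl/fl), whose floxed gene Fos, a subunit of the AP-1 transcription factor, Cre should remove. LysM-Cre is a Cre recombinase expressed from the lysozyme locus of myeloid cells, and it is carried by both genotypes. For the controls, the series' design names LysM-Cre alone and the study's text adds a single floxed allele of Fos. The table holds nothing that decides between these. RNA came from unstimulated cells (0 h) and from cells given 100 ng/ml lipopolysaccharide (LPS, a component of bacterial outer membranes that activates TLR4) for 0.5, 1 or 2 h. There were 3 libraries in each of 8 groups, which the study calls biological replicates, and the labels do not say whether each came from its own animal. The age of the mice that gave these cells is not given in the sources used here.

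Inflammasomes are protein complexes that assemble in the cytosol of macrophages when a sensor protein meets a microbial product or a sign of damage. The sensor recruits caspase-1, usually through the adaptor ASC, and the active caspase cuts the precursors of the cytokines IL-1β and IL-18 and the pore-forming protein gasdermin D, whose pores kill the cell by pyroptosis. A priming stimulus such as LPS raises the transcripts of some of these components, and the assembly itself is controlled at the protein level, which RNA sequencing does not measure.

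All values are deposited log2 values, on which a difference of 1 is a doubling. A genotype difference is the mean of the FosKO-labelled libraries minus that of the LysM-Cre libraries, and an LPS change is the mean at that time minus the mean at 0 h of the same genotype. Differences were tested with limma in a fit over all 24 libraries, p-values were adjusted over the 13901 genes by the Benjamini-Hochberg method, and an adjusted p under 0.05 was taken as a call. P-values rest on the spread between libraries within groups. It was estimated once per gene from all 8 groups and moderated over genes, so it is not that of the compared groups alone. Library values are given in the order of replicates 1, 2 and 3.

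The targeted gene did not check the labels. Fos stood at 11.11 ± 0.05 (SD, n = 3) in unstimulated LysM-Cre libraries and at 12.60 ± 0.17 in those labelled FosKO, and at 2 h at 9.52 ± 0.10 and 12.80 ± 0.13. At 0.5 h, when Fos rose in the LysM-Cre libraries to 13.52 ± 0.08, it was lower in those labelled FosKO, at 12.75 ± 0.09. The LPS change of Fos at 0.5 h was 2.41 in LysM-Cre (limma, adjusted p = 1.61e-14), and at 0.5, 1 and 2 h it was 0.15, 0.18 and 0.20 in the FosKO-labelled libraries, none called (adjusted p = 0.396, 0.122 and 0.054). The last was called without FosKO-labelled replicate 1 or 3 of 0 h or replicate 2 of 2 h (adjusted p = 0.0245, 0.0474 and 0.0212). One value per gene cannot separate the deleted part of the gene from the rest, so every genotype direction below rests on the labels. The genotypes also differed at the locus that carries the Cre. Lyz2, the lysozyme gene of that locus, stood at 10.94 ± 0.09 (SD, n = 3) in unstimulated LysM-Cre libraries and at 16.10 ± 0.02 in those labelled FosKO, a 35.9-fold difference (limma, adjusted p = 9.26e-20), and it was 29.6-, 31.6- and 33.4-fold higher in the latter at 0.5, 1 and 2 h. The part of this difference in the genotype differences below was not tested. Values of Rn18s-rs5, a gene of 18S ribosomal RNA, were 16.65 to 16.998 in 5 libraries and at least 18.57 in the remaining 19. At 0.5 h the low libraries were replicate 3 of LysM-Cre and replicate 1 of those labelled FosKO, and at 1 h replicates 2 and 3 of LysM-Cre and replicate 1 of those labelled FosKO. Genotype differences at these times are therefore also given within each set. The macrophage markers (7 genes, in 8 rows of the table) summed on the linear scale to 144000 to 174000 in LysM-Cre libraries and to 141000 to 187000 in those labelled FosKO. Single macrophage markers differed, with 13 calls higher and 7 lower in the FosKO-labelled libraries over the 4 times. Mertk was 1.85- to 3.13-fold and Fcgr1 1.54- to 1.81-fold higher at each time, and the main Itgam row was called lower at 0, 0.5 and 1 h (0.842 to 0.88 times). Their part in the results was not tested. Neutrophil markers (7 of 8 genes in the table) summed to 71.3 to 146 and to 47.1 to 78.1. The 3 tested were called lower in the FosKO-labelled libraries in 11 tests over the 4 times, beside 15.9% to 20.3% of all tested genes. B cell markers summed to 2720 to 3020 and to 1850 to 2390, nearly all of it from Ighm, the 1 gene of that list tested, which was called lower at the 4 times. Dendritic cell markers summed to 34.4 to 126 and to 34.1 to 92.6, fibroblast markers to 14.4 to 28.2 and to 13.7 to 21.5, T and NK cell markers to at most 1.85, and the 1 mast cell marker in the table to at most 0.266. Among the 3 dendritic cell markers tested, Zbtb46 was called lower in the FosKO-labelled libraries at 2 h (0.514 times, limma adjusted p = 0.000121) and Xcr1 higher at 1 h (1.34-fold, adjusted p = 0.0443), the latter not called on leaving out any 1 of the 6 libraries of 1 h (adjusted p between 0.0529 and 0.114). Zbtb46 and Xcr1 also rose over 2 h of LPS, by 2.24 and 1.85 in LysM-Cre. In the FosKO-labelled libraries they rose by 1.39 and 1.56. Each range of the dendritic sums thus spans LPS times at which these markers differ. In bulk libraries fewer cells of a type and less RNA per cell cannot be told apart, and the part of the neutrophil, dendritic and B cell markers in the genotype differences below was not tested.

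Before LPS, 6 of the 9 genes differed between the genotypes. Nlrc4, Aim2, Casp1, Casp4 and Gsdmd were higher in the FosKO-labelled libraries, by 1.28-fold (Gsdmd) to 1.92-fold (Casp4), and Nlrp1b was lower, at 0.564 times the LysM-Cre level. The same 6 genes were called in the same direction at 0.5, 1 and 2 h, and at none of the 4 times did the 3 libraries of one genotype overlap the 3 of the other for any of them. The groups lay apart for 7, 6, 7 and 7 of the 9 genes at the successive times, beside 44.5%, 50.8%, 45% and 54% of all tested genes. Nlrp3 was called higher at 2 h, by 1.18-fold, while Pycard and Nek7 were called at none of the 4 times. Quantile normalisation of the libraries ended this Nlrp3 call, made Nlrp3 called lower at 0.5 and 1 h and made Nek7 called lower at 2 h, with the values given for each gene below. After LPS, Nlrp3 rose 7.41-fold by 1 h in LysM-Cre libraries and 6.57-fold in those labelled FosKO, and at 2 h Casp4, Aim2, Casp1 and Gsdmd had risen and Nlrp1b and Nlrc4 had fallen in both genotypes. Of these, the Nlrc4 fall in LysM-Cre was not called under quantile normalisation (-0.08, adjusted p = 0.321) or in 3 of the fits that left out 1 library, and the Casp1 rise in the FosKO-labelled libraries was not called under quantile normalisation (0.14, adjusted p = 0.0519).

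These counts stand against a table in which many genes moved. For the genotype, genes called in either direction made up 35.4%, 40.9%, 33.9% and 44.6% of those tested at the successive times, where 6, 6, 6 and 7 of the 9 genes were called. The median genotype difference of the 9 genes was 0.36, 0.52, 0.37 and 0.29 at the 4 times, and that of all tested genes lay between -0.0032 and 0.0040. For LPS in LysM-Cre, 7.24%, 35.8% and 60.8% of all tested genes were called at 0.5, 1 and 2 h, and 1, 6 and 7 of the 9. The count of 6 was 3 without LysM-Cre replicate 3 of 1 h and 2 with the libraries high in 18S, and the count of 1 was 2 under quantile normalisation and in a fit of the compared groups alone. In the FosKO-labelled libraries the shares were 5.92%, 32.6% and 62.1%, and 1, 3 and 7 of the 9 were called. Without FosKO-labelled replicate 3 of 0 h the first of these counts was 3 and the second 5, and the first was 2 without FosKO-labelled replicate 1 of 0.5 h, with the libraries high in 18S and with the replicate number as a block. The median LPS change of the 9 genes at 2 h was 0.49 in LysM-Cre and 0.42 in the FosKO-labelled libraries, beside -0.016 and 0.0047 over all tested genes.

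**Figure D1:**
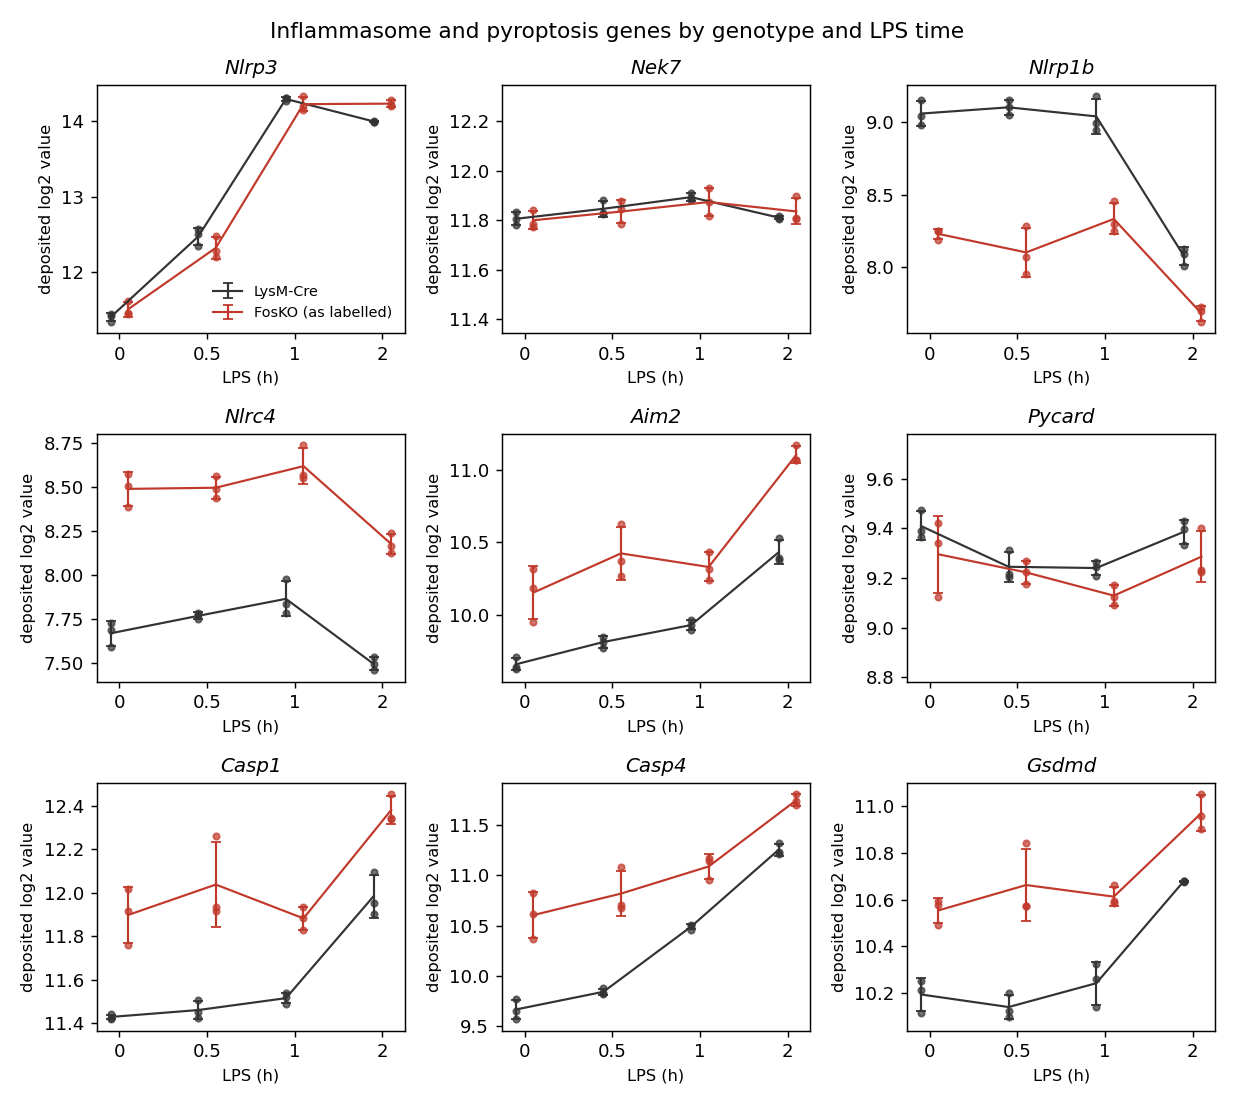
Deposited log2 values of the 9 genes in the 24 libraries (points) against LPS time (h, evenly spaced), with group means joined by lines and bars of 1 SD (n = 3), LysM-Cre in black and FosKO-labelled libraries in red. Nlrc4, Aim2, Casp1, Casp4 and Gsdmd lie higher in red at each time, Nlrp1b lies lower, and Nlrp3, Pycard and Nek7 run close together in both genotypes, on an axis range of its own in each panel.

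The starts of 2 genes that rose with LPS, Nlrp3 and Casp4, and of Casp1, which lies directly before Casp4 on the same strand and rose less, are shown so that promoters of genes with large and small LPS changes can be set side by side. They were picked after the values had been seen. Each is the stretch before the gene's first annotated base, on the + strand of GRCm38.p6 from RefSeq (Nlrp3 chr11:59541319-59541567, Casp1 chr9:5298267-5298516, Casp4 chr9:5308599-5308827), and capitals mark matches to the NF-kB consensus, which can overlap.
Nlrp3: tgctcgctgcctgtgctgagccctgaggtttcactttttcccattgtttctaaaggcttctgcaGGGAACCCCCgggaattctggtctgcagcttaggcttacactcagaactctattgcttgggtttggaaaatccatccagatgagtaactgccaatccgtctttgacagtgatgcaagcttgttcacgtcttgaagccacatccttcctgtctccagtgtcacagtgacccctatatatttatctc
Casp1: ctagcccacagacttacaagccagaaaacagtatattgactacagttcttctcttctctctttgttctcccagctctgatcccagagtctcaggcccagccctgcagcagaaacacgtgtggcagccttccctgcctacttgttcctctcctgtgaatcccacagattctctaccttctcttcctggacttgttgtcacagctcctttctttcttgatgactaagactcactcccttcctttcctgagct
Casp4: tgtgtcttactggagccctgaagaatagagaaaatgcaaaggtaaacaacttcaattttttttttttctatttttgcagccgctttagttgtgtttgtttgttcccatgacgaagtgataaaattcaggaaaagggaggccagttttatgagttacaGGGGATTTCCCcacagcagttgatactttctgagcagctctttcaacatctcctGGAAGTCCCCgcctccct
In the 250 bases before the start, 5 motifs were searched on both strands: the ISRE core, GAS (TTCNNNGAA), AP-1 (TGANTCA), CRE (TGACGTCA) and a strict NF-kB motif. None was found at any of the 11 RefSeq starts of the 8 genes with an entry (Gsdmd had none), and over 32851 promoters they were present in 2.98%, 7.02%, 6.75%, 1.55% and 1.21%. A looser search with the NF-kB consensus over 300 bases was added after these sequences had been read. It matched at 3 of the 11 starts, both of Casp4 and the second of Nlrp3, and in 8.46% of all promoters. The Nlrp3 stretch shown above is that of the second of its 2 starts. The first, which is not shown, had no match. Both Casp4 starts matched the same letters, beginning at -93 from one start and at -104 from the other, so that stretch is counted at each. The capitals in the Casp4 stretch span positions -93 to -83 and -39 to -30 from the RefSeq start, and those in the Nlrp3 stretch -186 to -177. A match is a description of the letters and not a binding site, and the absence of these letters says nothing of the factors.

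Nlrp3 encodes the sensor that responds to potassium efflux and many other danger signals, and its transcript is a textbook target of priming by LPS. The gene (chr11:59541568-59566956, + strand, GRCm38, protein coding, as are the other 8) stood at 11.46, 11.35 and 11.42 in unstimulated LysM-Cre libraries and at 11.46, 11.46 and 11.62 in those labelled FosKO. At 0.5 h the values were 12.35, 12.57 and 12.51 in LysM-Cre and 12.29, 12.21 and 12.48 in the FosKO-labelled libraries. Both genotypes had thus left their 0 h range by 0.5 h, and they overlapped each other. At 1 h Nlrp3 reached 14.27, 14.32 and 14.31 in LysM-Cre and 14.15, 14.20 and 14.33 in the FosKO-labelled libraries. At 2 h it stood at 14.01, 14.00 and 14.00 in LysM-Cre and at 14.22, 14.20 and 14.29 in those labelled FosKO, where the genotypes no longer overlapped. In LysM-Cre the change from 0 h was 1.07, 2.89 and 2.59 at 0.5, 1 and 2 h (SE 0.064, adjusted p = 8.65e-11, 1.04e-18 and 3.11e-18). In the FosKO-labelled libraries it was 0.81, 2.72 and 2.72 (adjusted p = 9.81e-09, 3.37e-18 and 1.41e-18). In the fit over all 24 libraries Nlrp3 was the 1 gene of the 9 called at 0.5 h, in either genotype.

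The genotype difference of Nlrp3 was 0.10, -0.15, -0.07 and 0.24 at 0, 0.5, 1 and 2 h, of which the last was called (adjusted p = 0.00507) and the others were not (adjusted p = 0.227, 0.0678 and 0.451). Under quantile normalisation of the libraries the 2 h difference was 0.01 and not called (adjusted p = 0.89), and those at 0.5 and 1 h were called lower, at -0.24 each (adjusted p = 0.000797 and 0.00107). The 0.5 h difference became called without LysM-Cre replicate 1 of that time (-0.21, adjusted p = 0.0152) and without FosKO-labelled replicate 3 of that time (-0.23, adjusted p = 0.00611). Within the libraries high in 18S it was -0.12 at 0.5 h and 0.0017 at 1 h, and within those low in 18S -0.22 and -0.16. From lowest to highest the group means ran LysM-Cre 0 h, FosKO 0 h, FosKO 0.5 h, LysM-Cre 0.5 h, LysM-Cre 2 h, FosKO 1 h, FosKO 2 h and LysM-Cre 1 h, with FosKO as labelled, and 3 of the 7 neighbouring pairs overlapped.

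Nek7 encodes a kinase that binds NLRP3 and is needed for that inflammasome to assemble. The gene (chr1:138482875-138620141, - strand) overlaps Gm28501 on the opposite strand and the unclassified genes Gm37080 and Gm37101 on its own strand, whose reads the counting could assign to either. Its values spanned 11.78 to 11.83 in unstimulated LysM-Cre libraries and 11.77 to 11.84 in those labelled FosKO. Over all 8 groups the means ran from 11.80 to 11.89, and all 7 neighbouring pairs of groups overlapped. Genotype differences were -0.01, -0.01, -0.02 and 0.02 (SE 0.031, adjusted p = 0.911, 0.814, 0.67 and 0.556), and none was called. Under quantile normalisation the 2 h difference was called lower (-0.10, adjusted p = 0.00935), as were the 2 h LPS changes in LysM-Cre (-0.24, adjusted p = 5.98e-07) and in the FosKO-labelled libraries (-0.27, adjusted p = 1.1e-07). Within the high 18S set they were 0.0068 at 0.5 h and -0.0067 at 1 h, and within the low set -0.047 and -0.026. An LPS change of 0.09 was called at 1 h in LysM-Cre (adjusted p = 0.0327), and it was not called without LysM-Cre replicate 1 or 2 of 0 h or replicate 2 or 3 of 1 h (adjusted p = 0.117, 0.0744, 0.106 and 0.0636). Under quantile normalisation that change was -0.07 and not called (adjusted p = 0.0903). In the FosKO-labelled libraries the 1 h change was 0.07 and not called (adjusted p = 0.077), but it was called without replicate 3 of 0 h (0.09, adjusted p = 0.0365) or of 1 h (0.10, adjusted p = 0.0249).

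Nlrp1b encodes the sensor of anthrax lethal toxin and of other proteases that cleave its N terminus. The gene (chr11:71153102-71230733, - strand) has a close paralog, Nlrp1a, so its level is uncertain to the extent that reads were shared between them. At 0 h Nlrp1b stood at 9.04, 8.98 and 9.15 in LysM-Cre libraries and at 8.25, 8.19 and 8.25 in those labelled FosKO. At 0.5 h the values were 9.04, 9.15 and 9.10 against 8.28, 8.07 and 7.95. Every FosKO-labelled library lay below every LysM-Cre library at these times. At 1 h they were 9.18, 8.99 and 8.94 against 8.30, 8.25 and 8.45, and at 2 h 8.01, 8.09 and 8.13 against 7.70, 7.73 and 7.63. Both genotypes had fallen by 2 h, and the LysM-Cre libraries had fallen further, to a mean of 8.08 beside 8.10 in the FosKO-labelled libraries at 0.5 h. The genotype difference was -0.83, -0.995, -0.70 and -0.39 at 0, 0.5, 1 and 2 h (SE 0.074, adjusted p = 4.24e-08, 2.15e-09, 3.18e-07 and 0.000191). For libraries high in 18S it was -1.08 at 0.5 h and -0.82 at 1 h, and within the low set -0.82 and -0.67.

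The fall of Nlrp1b at 2 h was -0.98 in LysM-Cre (adjusted p = 3.08e-10) and -0.55 in the FosKO-labelled libraries (adjusted p = 1.75e-06). This difference in LPS response, 0.43 (SE 0.10), was itself called (adjusted p = 0.00741). At 0.5 and 1 h the LPS change was 0.04 and -0.02 in LysM-Cre and -0.13 and 0.10 in the FosKO-labelled libraries, and none of these was called. The group means ran from FosKO 2 h at 7.68 to LysM-Cre 0.5 h at 9.10, with the 4 groups labelled FosKO and LysM-Cre 2 h below the other 3 LysM-Cre groups, and 5 of the 7 neighbouring pairs overlapped. Nlrp1a, the paralog, showed genotype differences of -0.14, -0.16, -0.15 and -0.13 at the 4 times, of which that at 0.5 h was called (adjusted p = 0.0383). The call was lost without any 1 LysM-Cre library of 0.5 h or FosKO-labelled replicate 2 or 3 of 0.5 h (adjusted p between 0.0551 and 0.145), and under quantile normalisation (adjusted p = 0.0621). Each of the other 3 became called on leaving out 1 library: LysM-Cre replicate 1 of 0 h (-0.21, adjusted p = 0.0139), FosKO-labelled replicate 3 of 1 h (-0.19, adjusted p = 0.041) or LysM-Cre replicate 3 of 2 h (-0.18, adjusted p = 0.0358).

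Nlrc4 encodes the sensor that acts with NAIP proteins to detect bacterial flagellin and type III secretion needles. The gene (chr17:74425438-74459142, - strand) overlaps the processed pseudogene CT033749.1 on its own strand. Unstimulated Nlrc4 stood at 7.69, 7.73 and 7.59 in LysM-Cre libraries and at 8.39, 8.58 and 8.51 in those labelled FosKO. At 0.5 h it stood at 7.79, 7.75 and 7.77 against 8.44, 8.56 and 8.49. The lowest FosKO-labelled library was above the highest LysM-Cre library at both times. At 1 h the values were 7.84, 7.78 and 7.98 against 8.57, 8.74 and 8.55, and at 2 h 7.53, 7.50 and 7.46 against 8.24, 8.13 and 8.17. Of the 6 genes called at each time, Nlrc4 had the genotype difference that moved least, at 0.82, 0.73, 0.75 and 0.68 (SE 0.061, adjusted p = 3.51e-09, 1.18e-08, 9.76e-09 and 2.02e-08). In the high 18S set it was 0.76 at 0.5 h and 0.81 at 1 h, and within the low set 0.66 and 0.69. All 4 groups labelled FosKO lay above all 4 LysM-Cre groups in the order of means, and 3 of the 7 neighbouring pairs overlapped.

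LPS changes of Nlrc4 were small. In LysM-Cre it was higher at 1 h by 0.20 (adjusted p = 0.0164), a call that was lost without LysM-Cre replicate 3 of 0 h (0.16, adjusted p = 0.0854) or of 1 h (0.14, adjusted p = 0.111). At 2 h the change was -0.17 (adjusted p = 0.0188). Leaving out replicate 1 or 2 of the 0 h LysM-Cre libraries or replicate 3 of the 2 h ones ended that call (adjusted p = 0.0516, 0.0825 and 0.0646), as did quantile normalisation (-0.08, adjusted p = 0.321). In the FosKO-labelled libraries the change was 0.01, 0.13 and -0.31 at 0.5, 1 and 2 h, and the last was called (adjusted p = 0.000152).

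Aim2 encodes the sensor of double-stranded DNA in the cytosol and is known as an interferon-inducible gene. It lies at chr1:173350879-173466040 on the + strand and overlaps Cadm3 on the opposite strand. Its values at 0 h were 9.70, 9.64 and 9.63 in LysM-Cre libraries and 9.95, 10.19 and 10.32 in those labelled FosKO. At 0.5 h they were 9.85, 9.77 and 9.81 against 10.27, 10.37 and 10.63. The FosKO-labelled libraries were spread more widely than the LysM-Cre ones at these times, and did not overlap them. At 1 h the values were 9.93, 9.89 and 9.96 against 10.24, 10.43 and 10.32, and at 2 h 10.37, 10.39 and 10.53 against 11.07, 11.07 and 11.17. The genotype difference was 0.49, 0.61, 0.40 and 0.67 (SE 0.081, adjusted p = 6.41e-05, 3.93e-06, 0.000577 and 1.03e-06). Within the high 18S set it was 0.69 at 0.5 h and 0.45 at 1 h, and within the low set 0.45 and 0.31.

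By 2 h Aim2 had risen by 0.77 in LysM-Cre (adjusted p = 4.46e-08) and by 0.95 in the FosKO-labelled libraries (adjusted p = 1.86e-09). At 1 h the change was 0.27 in LysM-Cre and called (adjusted p = 0.0122, and 0.101 with the libraries high in 18S), and 0.18 in the FosKO-labelled libraries and not called (adjusted p = 0.105). The difference between these responses, -0.09 at 1 h and 0.18 at 2 h, was not called (adjusted p = 0.939 and 0.352). The 0.5 h change in the FosKO-labelled libraries was 0.27 (adjusted p = 0.0538), and it was called with the replicate number as a block (adjusted p = 0.0246) and with the libraries high in 18S (0.35, adjusted p = 0.0304). It was also called without FosKO-labelled replicate 3 of 0 h (0.35, adjusted p = 0.0112) or replicate 1 of 0.5 h (0.35, adjusted p = 0.0156), and the former omission also made the 1 h change called (0.26, adjusted p = 0.0204). The mean of the 2 h LysM-Cre libraries, 10.43, ranked just above the 0.5 h FosKO-labelled libraries, 10.42, and 4 of the 7 neighbouring pairs overlapped.

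Pycard encodes ASC, the adaptor that links several sensors to caspase-1. It lies at chr7:127989708-127993867 on the - strand and overlaps the unclassified gene Gm45205 on the opposite strand. Unstimulated values were 9.48, 9.36 and 9.39 in LysM-Cre libraries and 9.42, 9.34 and 9.12 in those labelled FosKO. Genotype differences were -0.11, -0.02, -0.11 and -0.10 at the 4 times (SE 0.061, adjusted p = 0.16, 0.81, 0.174 and 0.197), none of them called. Without FosKO-labelled replicate 1 of 0 h the first was called (-0.18, adjusted p = 0.0284). Within the high 18S set the differences were 0.036 at 0.5 h and -0.10 at 1 h, and within the low set -0.14 and -0.084.

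LPS changes of -0.17 at 1 h were called for Pycard in LysM-Cre (adjusted p = 0.0349) and in the FosKO-labelled libraries (-0.17, adjusted p = 0.041). The LysM-Cre call was lost without replicate 1 or 3 of 0 h or any 1 of the 3 libraries of 1 h, with adjusted p between 0.0545 and 0.143. That in the FosKO-labelled libraries was lost without replicate 1 or 2 of 0 h or replicate 2 or 3 of 1 h, with adjusted p between 0.0865 and 0.234, and without replicate 3 of 0 h the change was -0.25 (adjusted p = 0.000928). At 2 h Pycard was back at 9.39 ± 0.05 in LysM-Cre and 9.29 ± 0.10 in the FosKO-labelled libraries (SD, n = 3). Over the 8 groups the means spanned 9.13 to 9.41, and 6 of the 7 neighbouring pairs overlapped.

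Casp1 encodes caspase-1, the protease that matures IL-1β and IL-18 and cuts gasdermin D. It lies at chr9:5298517-5307265 on the + strand. At 0 h it stood at 11.44, 11.43 and 11.42 in LysM-Cre libraries and at 11.76, 11.91 and 12.02 in those labelled FosKO. At 0.5 h it stood at 11.45, 11.42 and 11.50 against 11.91, 11.94 and 12.26. The LysM-Cre libraries were close together and the FosKO-labelled libraries lay above them with a wider spread. At 1 h the values were 11.49, 11.52 and 11.54 against 11.83, 11.93 and 11.88, and at 2 h 11.95, 11.90 and 12.09 against 12.35, 12.34 and 12.45. The genotype difference was 0.47, 0.58, 0.37 and 0.40 (SE 0.072, adjusted p = 3.06e-05, 1.79e-06, 0.000424 and 0.000128). For libraries high in 18S it was 0.66 at 0.5 h and 0.42 at 1 h, and within the low set 0.41 and 0.30. Casp1 rose by 0.56 at 2 h in LysM-Cre (adjusted p = 9.44e-07, and 0.32 under quantile normalisation, adjusted p = 8.55e-05) and by 0.48 in the FosKO-labelled libraries (adjusted p = 5.9e-06), the latter not called under quantile normalisation (0.14, adjusted p = 0.0519). Changes at 0.5 and 1 h were 0.03 and 0.09 in LysM-Cre and 0.14 and -0.02 in the FosKO-labelled libraries, none called. Under quantile normalisation the 1 h change in the FosKO-labelled libraries was called lower. In a fit of the compared groups alone that in LysM-Cre was called higher. The mean of the 2 h LysM-Cre libraries, 11.98, lay among those of the FosKO-labelled libraries before 2 h, and 5 of the 7 neighbouring pairs overlapped.

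Casp4 encodes mouse caspase-11, which binds bacterial LPS in the cytosol and cuts gasdermin D without a sensor protein. It lies at chr9:5308828-5336783 on the + strand, next to Casp1. Unstimulated Casp4 stood at 9.76, 9.57 and 9.65 in LysM-Cre libraries and at 10.37, 10.62 and 10.83 in those labelled FosKO. At 0.5 h it stood at 9.83, 9.87 and 9.81 against 10.67, 10.70 and 11.08. At both times the mean difference was the largest among the 5 genes that were higher in the FosKO-labelled libraries. At 1 h the values were 10.50, 10.51 and 10.46 against 10.95, 11.18 and 11.14, and at 2 h 11.24, 11.21 and 11.32 against 11.70, 11.74 and 11.81. The genotype difference was 0.94, 0.98, 0.60 and 0.49 (SE 0.098, adjusted p = 2.78e-07, 1.06e-07, 6.22e-05 and 0.000329). In the high 18S set it was 1.04 at 0.5 h and 0.66 at 1 h, and within the low set 0.86 and 0.47.

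With LPS, Casp4 rose by 0.83 at 1 h and 1.60 at 2 h in LysM-Cre (adjusted p = 7.61e-07 and 9.83e-12), that is 3.02-fold at 2 h. The FosKO-labelled libraries showed rises of 0.49 and 1.15 (adjusted p = 0.000532 and 1.93e-09), 2.21-fold at 2 h. At 0.5 h the changes were 0.18 and 0.21, neither called, and the second was called without FosKO-labelled replicate 3 of 0 h (0.33, adjusted p = 0.045). The rise at 2 h was smaller in the FosKO-labelled libraries, with a difference of -0.45 (SE 0.14, adjusted p = 0.0327). That call was lost in 8 of the fits that left out 1 library, with the difference between -0.34 and -0.46 and adjusted p between 0.0514 and 0.0883, and without the filter on low values (adjusted p = 0.055). The 8 were replicates 2 and 3 of 0 h in each genotype, LysM-Cre replicates 1 and 3 of 2 h, and the FosKO-labelled libraries replicates 1 and 2 of 2 h. The order of means put the unstimulated FosKO-labelled libraries, 10.60, next to the 1 h LysM-Cre libraries, 10.49, which they overlapped, and 3 of the 7 neighbouring pairs overlapped in all.

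Gsdmd encodes gasdermin D, the pore-forming protein that caspase-1 and caspase-11 cut. It lies at chr15:75862327-75867408 on the + strand. At 0 h its values were 10.25, 10.21 and 10.11 in LysM-Cre libraries and 10.49, 10.59 and 10.58 in those labelled FosKO. At 0.5 h they were 10.20, 10.10 and 10.12 against 10.57, 10.57 and 10.84. The gap between the nearest libraries of the 2 genotypes was narrower than for Casp4, and the groups still did not overlap. At 1 h the values were 10.14, 10.26 and 10.32 against 10.58, 10.66 and 10.59, and at 2 h 10.68 in each LysM-Cre library against 10.90, 10.96 and 11.05. The genotype difference was 0.36, 0.52, 0.37 and 0.29 (SE 0.061, adjusted p = 8.95e-05, 7.65e-07, 6.63e-05 and 0.000533). Within the high 18S set it was 0.56 at 0.5 h and 0.49 at 1 h, and within the low set 0.45 and 0.29. Gsdmd rose by 0.49 at 2 h in LysM-Cre (adjusted p = 6e-07) and by 0.42 in the FosKO-labelled libraries (adjusted p = 4.5e-06), the latter 0.20 under quantile normalisation (adjusted p = 0.00439), and its changes at 0.5 and 1 h, between -0.05 and 0.11, were not called. Of the 7 neighbouring pairs of groups, 5 overlapped.

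**Figure D2:**
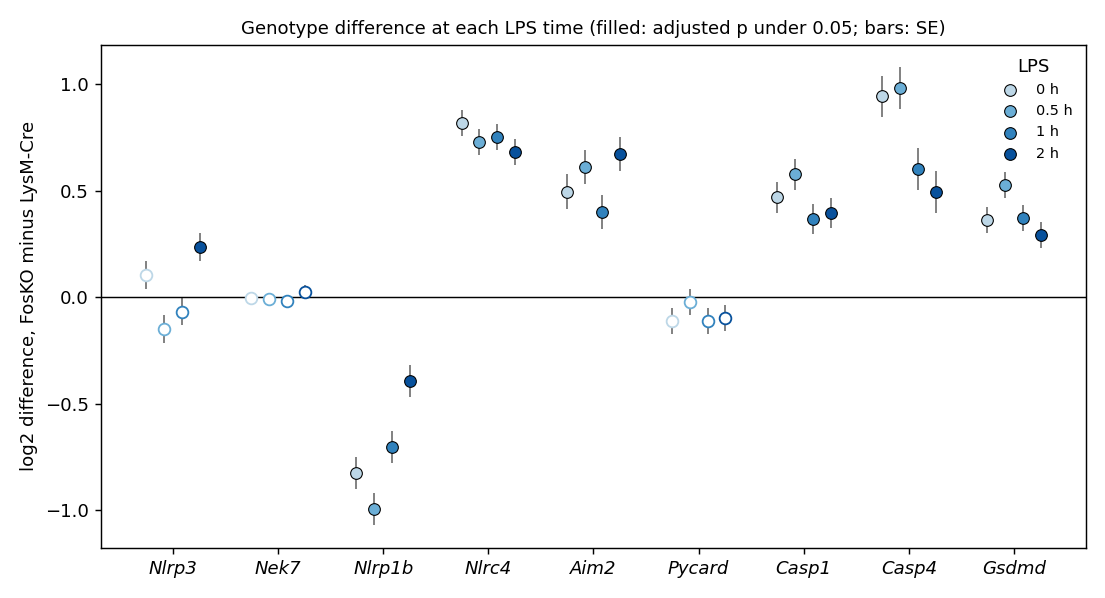
Genotype difference (log2, FosKO-labelled libraries minus LysM-Cre, y axis) of the 9 genes (x axis) at 0, 0.5, 1 and 2 h of LPS (light to dark), with bars of 1 SE from the fit and filled circles for an adjusted p under 0.05. Nlrc4, Aim2, Casp1, Casp4 and Gsdmd lie above 0 and Nlrp1b below 0 at the 4 times, with Nlrp1b moving from -0.995 at 0.5 h to -0.39 at 2 h.

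The 6 genes with a genotype difference kept their call and direction in all 288 values computed for them under the alternatives. Their size moved by over 1.5 times under quantile normalisation at 2 h, for Casp1 from 0.40 to 0.24 (adjusted p = 0.00251) and for Gsdmd from 0.29 to 0.18 (adjusted p = 0.0137). FosKO-labelled replicate 1 was the lowest of its 3 at 4 of 4 times for Casp4 and at 3 of 4 times for Aim2, Casp1 and Gsdmd.

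**Figure D3:**
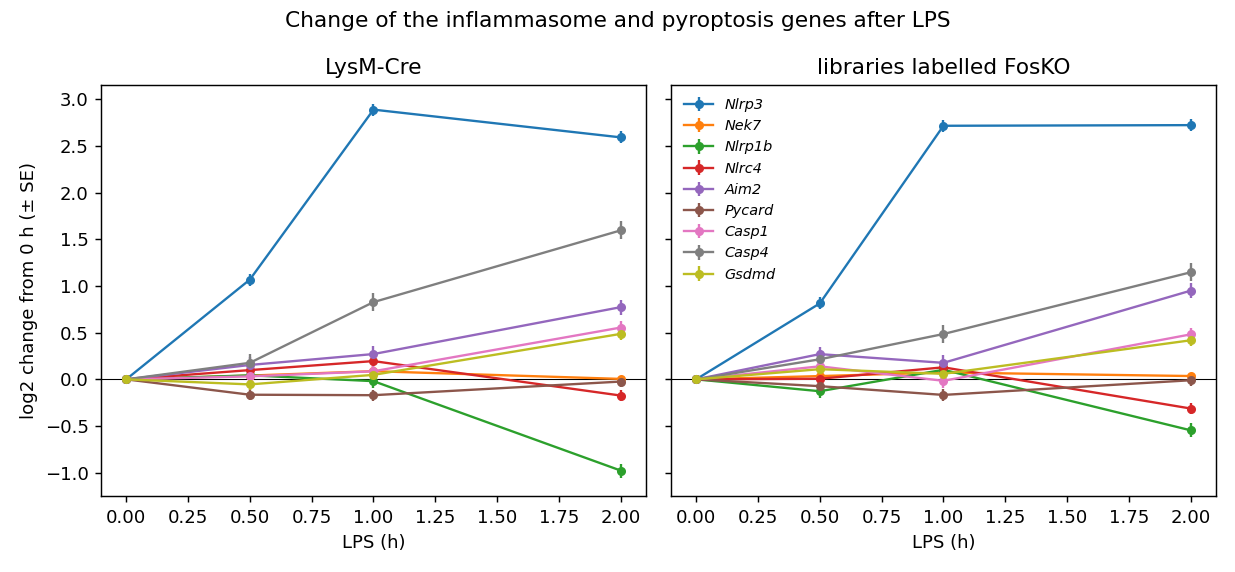
LPS change from 0 h (log2, y axis) of the 9 genes against LPS time in h (x axis), LysM-Cre on the left and FosKO-labelled libraries on the right, with bars of 1 SE from the fit. Nlrp3 rises first and furthest in both panels, Casp4 next, and Nlrp1b falls after 1 h, by 0.98 on the left and 0.55 on the right.

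The LPS response of the 9 genes was also compared between the genotypes. In limma no gene of the 9 had a called difference in response at 0.5 or 1 h, where 0.115% and 1.22% of all tested genes were called. At an unadjusted p under 0.05 there was 1 gene at each time, Nlrp3 at 0.5 h (-0.26) and Casp4 at 1 h (-0.34), beside 6.51% and 7.72% of all tested genes. Neither passed the limma test after adjustment over all genes (adjusted p = 0.684 and 0.486). At 2 h, 2 of the 9 were called, Nlrp1b and Casp4, beside 15% of all tested genes. For the other 7 the difference at 2 h lay between -0.14 (Nlrc4) and 0.18 (Aim2), and was not called.

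A list of 50 further genes of the pathway, of which 47 were in the table and 42 were tested, was described by its counts. At 0 h 25 were called higher and 4 lower in the FosKO-labelled libraries, and at 2 h 29 higher and 4 lower. At 0.5 and 1 h 71.4% and 61.9% of the list were called in either direction, beside 40.9% and 33.9% of all tested genes. Its median genotype difference was 0.18 at 0 h and 0.29 at 2 h, where 19.5% and 24.4% of all tested genes were called higher and 15.9% and 20.3% lower. Of the 8 tested sensors, 5 were higher at 0 h and 2 lower. The highest was Zbp1, a sensor of Z-form nucleic acids, at 11.64 ± 0.26 against 10.21 ± 0.12 (SD, n = 3), a difference of 1.43 (adjusted p = 6.66e-08). Nlrp10, which resembles the NLR sensors, was lower, with a difference of -0.82 (adjusted p = 7.88e-06). Mefv, which encodes pyrin, was lower, at -0.44 (adjusted p = 0.0436) with overlapping groups, and it lost its call in 5 of the fits that left out 1 library, namely any LysM-Cre library of 0 h (adjusted p 0.0724 to 0.0977) or FosKO-labelled replicate 1 or 2 of 0 h (adjusted p = 0.128 and 0.267). At 1 and 2 h Mefv was also lower, with groups that did not overlap, at -0.69 (adjusted p = 0.00238, and 0.104 with the libraries high in 18S) and -0.54 (adjusted p = 0.0101, and 0.0503 without FosKO-labelled replicate 2 of 2 h). Ripk3, a kinase of necroptosis, was lower, at -0.37 (adjusted p = 0.00023). Among the regulators, Gbp2 and Gbp5, guanylate-binding proteins that open bacterial membranes and vacuoles and are induced by interferon, were higher by 1.56 each (adjusted p = 7.19e-06 and 1.33e-05).

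Of the cytokines, Il1b and Il18 encode substrates of caspase-1, and the genotype difference of Il1b changed sign between times while that of Il18 did not. Il1b rose from 10.00 ± 0.01 to 14.94 ± 0.08 over 2 h in LysM-Cre, 30.7-fold, and from 10.20 ± 0.06 to 15.35 ± 0.12 in the FosKO-labelled libraries (SD, n = 3). The genotype difference of Il1b was 0.20 at 0 h and not called (adjusted p = 0.0539), -0.28 at 0.5 h (adjusted p = 0.00866, not called without LysM-Cre replicate 2 of that time, -0.20, adjusted p = 0.0718), -0.10 at 1 h and 0.42 at 2 h (adjusted p = 0.00024). Il18, whose product is also matured by caspase-1, was higher in the FosKO-labelled libraries at each time, by 0.60 to 0.83, and rose by 0.68 at 2 h in LysM-Cre (adjusted p = 1.08e-06) and by 0.66 in the FosKO-labelled libraries (adjusted p = 1.55e-06). Il1a, a cytokine released by dying cells, rose by 4.61 in LysM-Cre and by 5.16 in the FosKO-labelled libraries at 2 h, and this difference in response, 0.55 (SE 0.093), was called (adjusted p = 0.000302). Its genotype difference was 0.23 at 0 h (adjusted p = 0.00866, and 0.0585 without LysM-Cre replicate 2 of 0 h) and 0.79 at 2 h (adjusted p = 7.58e-09). All 6 of the substrates and antagonists tested were called higher at 2 h, beside 24.4% of all tested genes, and 4 of the 6 were called higher at 0, 0.5 and 1 h, beside 19.5%, 21.2% and 18%, with Il1b called lower at 0.5 h, beside 19.7%, the other members being Il33, Il1rn and Il18bp, which are named here after their values were seen. Il33 lay at 1.86 to 1.93 in every library of 0 and 0.5 h, below the filter level. It entered the test only through libraries of 1 and 2 h, so its call at 2 h supports nothing by itself.

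Over 2 h of LPS in LysM-Cre, 20 of the 42 were called higher and 13 lower, that is 78.6% in either direction beside 60.8% of all tested genes. For the FosKO-labelled libraries 25 were higher and 8 lower, again 78.6%, beside 62.1%. Gbp5 rose by 4.09 in LysM-Cre (adjusted p = 1.29e-12) and by 3.40 in the FosKO-labelled libraries (adjusted p = 2.47e-11). P2rx7, the ATP-gated channel upstream of NLRP3, fell by 0.92 in LysM-Cre (adjusted p = 3.34e-14) and by 0.80 in the FosKO-labelled libraries (adjusted p = 2.86e-13). Nlrx1, a mitochondrial NLR protein, fell by 0.85 and 0.77 (adjusted p = 1.75e-10 and 7.02e-10). Nlrp10 fell by 0.82 in LysM-Cre (adjusted p = 2.01e-06) and by 0.26 in the FosKO-labelled libraries (adjusted p = 0.0469). The latter call was lost without FosKO-labelled replicate 1 or 2 of 0 h or of 2 h, with adjusted p between 0.111 and 0.291. The difference in response of Nlrp10 was 0.55 (SE 0.16, adjusted p = 0.0209), a call lost in 5 of the fits that left out 1 library (adjusted p between 0.0502 and 0.0586). At 0.5 and 1 h 9.52% and 35.7% of the list were called in LysM-Cre, beside 7.24% and 35.8% of all tested genes, and 11.9% and 33.3% in the FosKO-labelled libraries, beside 5.92% and 32.6%. The difference in response was called for 2.38% of the list at 0.5 h and at 1 h, beside 0.115% and 1.22% of all tested genes, and for 21.4% at 2 h, beside 15%. The gene called at 0.5 and 1 h was Txnip, named after its values were seen (0.43 and 0.37, adjusted p = 0.0118 and 0.0099). Its 0.5 h call was lost in 3 of the fits that left out 1 library (adjusted p between 0.0548 and 0.0599), and both calls were lost with the libraries high in 18S (adjusted p = 0.106 and 0.184).

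**Figure D4:**
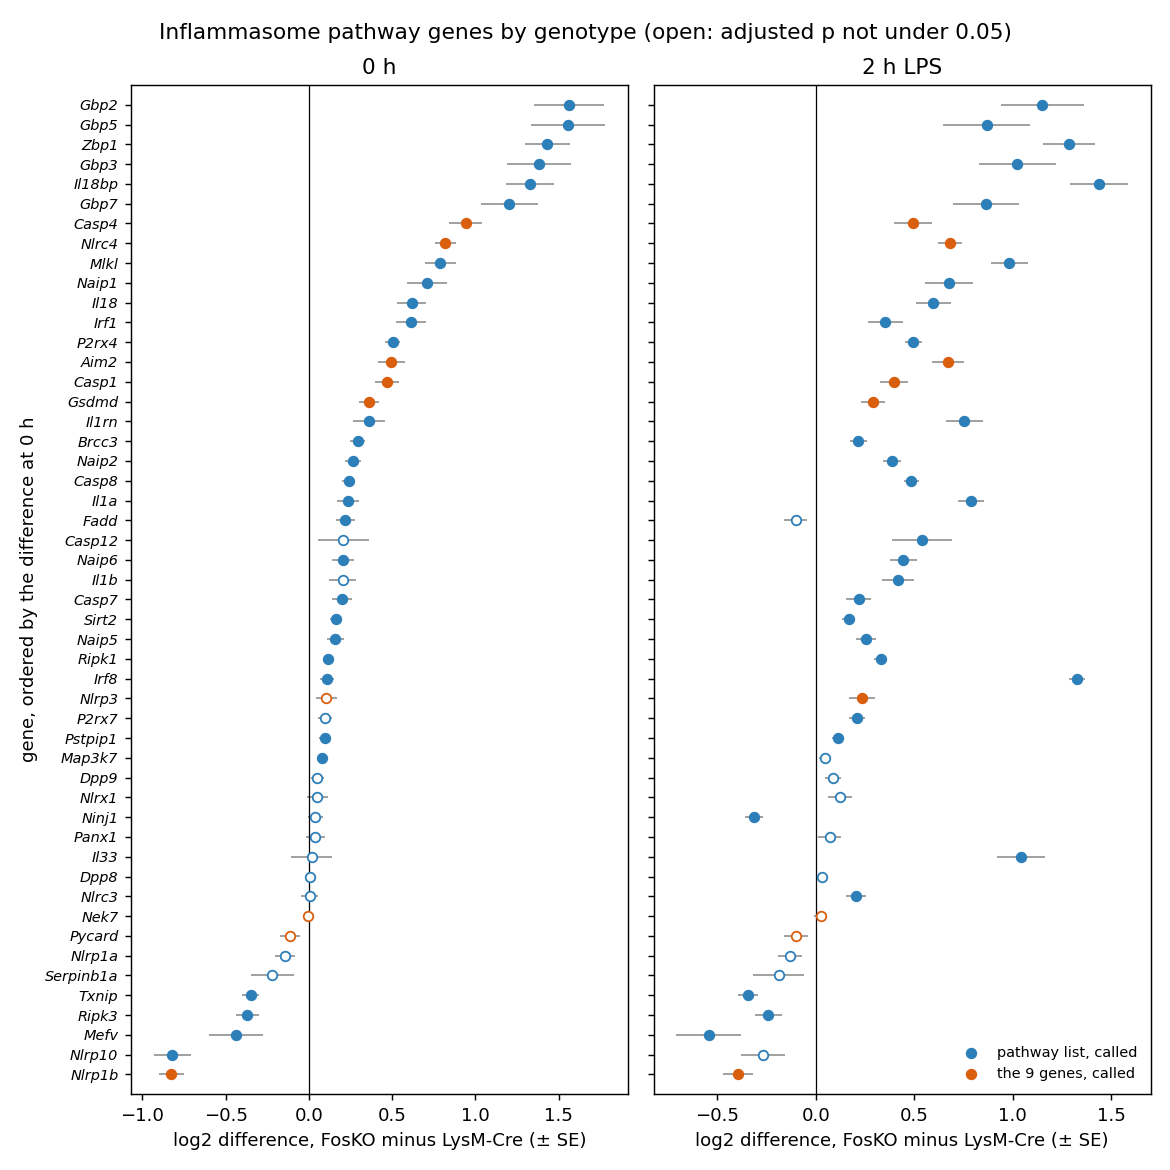
Genotype difference (log2, FosKO-labelled libraries minus LysM-Cre, x axis) of the 9 genes (orange) and the tested genes of the pathway list (blue, 1 gene not shown) at 0 h (left) and after 2 h of LPS (right), ordered by the 0 h value (y axis), with bars of 1 SE and open circles where the adjusted p was not under 0.05. More genes lie above 0 than below at both times, and Nlrp1b and Nlrp10 lie lowest at 0 h.

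Genes whose pattern over the 24 libraries was most like that of a member were sought for the 5 members whose group means spanned at least 1. The points share genotype, LPS time and library, so the correlations are descriptions. For Nlrp3 they were Pvr, Skil and Clcf1 (Pearson r = 0.99 each), for Nlrp1b Epb41l1, Fam78b and Tpcn1 (0.98, 0.98 and 0.97), and for Nlrc4 Gga2, Vav2 and Dio2 (0.97 each). For Aim2 they were Pcgf5, Tlk2 and Azi2 (0.99 each), and for Casp4 Ifi205, Zc3hav1 and Optn (0.99 each). None of the members was among the genes most like another member.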

How the data were processed

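RNA was sequenced from 24 libraries of BMDMs (TruSeq, single-end, strand-specific, Illumina, per the study's methods). The authors mapped reads and estimated gene counts with STAR 2.5.2a and RSEM 1.2.31 on GRCm38, and their processing notes also name DESeq2 1.16.1. They deposited a single table of normalised log2 values, whose transform is not given in the sources used here. It resembles a regularised log, in which case differences in genes with few reads are understated. The methods name RefSeq genes, yet the table carries Ensembl identifiers. No counts were analysed here, so the depth per library is unknown and neither a counting interval nor a count test was computed.

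Genes entered the test where 3 or more libraries reached 5 on the linear scale (2 raised to the deposited value). Tests used limma 3.58.1 in R 4.3.3 on the values as deposited, with 8 group means, 16 residual degrees of freedom, a trend in the variance and Benjamini-Hochberg adjustment over the 13901 tested genes, in 13 comparisons. The fit was tested on simulated data. The smallest two-sided p of an exact permutation test of 3 against 3 libraries is 0.1, and none was used.

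The 9 genes and all lists were chosen with earlier results of these data known, and support nothing by themselves. Besides the 9 genes, the text names Fos, Il1a, Il1b and Il18, the 3 largest called rises and falls of the pathway list for the genotype at 0 h and for 2 h of LPS in LysM-Cre, and, for members spanning at least 1, the 3 genes most like them. Outside this rule, Lyz2, Nlrp1a, Txnip, Il33, Il1rn, Il18bp, Mertk, Fcgr1, Itgam, Cd68, Adgre1, Csf1r, Ighm, Cd14, Zbtb46, Xcr1, Irf8, Casp8, Ripk1, Fadd and Ninj1 were named after their values had been seen. One gene of the pathway list enters the list's counts and is not reported here by name. Coordinates and overlapping genes come from the GENCODE annotation of GRCm38, promoters from RefSeq on GRCm38.p6. The marker lists were macrophage, neutrophil, dendritic cell, B cell, T and NK cell, fibroblast and mast cell, and an erythroid list that matched no row and was not analysed here.

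Alternatives were quantile normalisation, no filter, a pseudocount of 1, a fit of the compared groups alone, the replicate number as a block, the libraries high in 18S, and each library left out in turn. A block within each genotype was added after seeing the data.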

Additional observations from a re-analysis of the deposited data

Results flagged for a closer look

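The LPS response at 2 h differed between the genotypes, by a limma test of the difference itself (adjusted over all tested genes), for Nlrp1b and Casp4 of the 9 genes, for 9 of the 42 tested genes of the pathway list (7 higher and 2 lower), and for Fos and 4 marker genes, beside 15% of all tested genes. Nlrp1b fell less in the FosKO-labelled libraries, with a difference in response of 0.43 (adjusted p = 0.00741), and Casp4 rose less there, with -0.45 (adjusted p = 0.0327), a call lost in 8 of the fits that left out 1 library (adjusted p between 0.0514 and 0.0883) and without the filter on low values (adjusted p = 0.055). Il1a and Il33 rose more there, by 0.55 and 1.03 (adjusted p = 0.000302 and 0.000293). Nlrp10 fell less there, by 0.55 (adjusted p = 0.0209), a call that was lost in 5 of the fits that left out 1 library. These left out LysM-Cre replicate 2 or 3 of 0 h, LysM-Cre replicate 3 of 2 h, or FosKO-labelled replicate 3 of 0 h or of 2 h, and gave adjusted p between 0.0502 and 0.0586. Further calls of the pathway list, named after their values were seen, were Irf8 at 1.22 (adjusted p = 3.41e-11), Casp8 at 0.25 (0.00275), Ripk1 at 0.21 (0.00384), Fadd at -0.32 (0.0119) and Ninj1 at -0.35 (0.000586). The marker genes were Mertk at 0.68 (adjusted p = 1.75e-05), Cd14 at 0.36 (0.00233), the main row of Itgam at 0.15 (0.0423) and Zbtb46 at -0.85 (0.0223). The Zbtb46 call was lost without FosKO-labelled replicate 2 of 0 h or of 2 h or LysM-Cre replicate 3 of 2 h (adjusted p = 0.0631, 0.0586 and 0.052). For Fos the difference was 1.80 (adjusted p = 6.15e-09). At 0.5 h the response of Fos differed by -2.26 (adjusted p = 1.38e-09), beside 0.115% of all tested genes. Txnip fell less in the FosKO-labelled libraries at 0.5 and 1 h, with differences of 0.43 and 0.37 (adjusted p = 0.0118 and 0.0099), of which the first was lost without LysM-Cre replicate 1 of 0 h or replicate 2 or 3 of 0.5 h (adjusted p = 0.0548, 0.0599 and 0.0577), in a fit of the compared groups alone (0.115) and with the libraries high in 18S (0.106), and the second with the libraries high in 18S (0.184). Txnip stood at 12.63 in LysM-Cre and 12.28 in the FosKO-labelled libraries at 0 h. In the same order it stood at 11.55 and 11.63 at 0.5 h and at 10.61 and 10.63 at 1 h. The genotypes thus lay further apart before LPS than at these times. No cause was tested for any of these differences in response.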

How the results depend on the processing

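Of the 117 member differences (9 genes in 13 comparisons), 52 were called, and 28 that were not called changed sign under some alternative. A pseudocount of 1 changed no call. Quantile normalisation, which moved the median of all genes by at most 0.068, turned 8 Nek7 differences from positive to negative, of which 4 were called in one of the fits: the genotype difference at 2 h (-0.10, adjusted p = 0.00935), the 1 h LPS change in LysM-Cre (-0.067, adjusted p = 0.0903) and the 2 h LPS changes in LysM-Cre (-0.24, adjusted p = 5.98e-07) and in the FosKO-labelled libraries (-0.27, adjusted p = 1.1e-07). It also turned the 2 h LPS change of Lyz2 in the FosKO-labelled libraries from 0.21 to -0.42 (adjusted p = 0.000808), turned negative the 2 h genotype difference of Cd14 (-0.125, adjusted p = 0.0919) and the 2 h LPS changes of Casp8 in LysM-Cre (-0.14, adjusted p = 0.000533) and of Ripk1 in the FosKO-labelled libraries (-0.15, adjusted p = 0.000107), and made Nlrp3 called lower in the FosKO-labelled libraries at 0.5 and 1 h (-0.24 each). The count of members called after 0.5 h of LPS in LysM-Cre went from 1 to 2 under quantile normalisation (Pycard gained, -0.20, adjusted p = 0.047) and in a fit of the compared groups alone (Aim2 gained, 0.15, adjusted p = 0.0324). Calls were also gained for Casp1 at 1 h, in the FosKO-labelled libraries under quantile normalisation (-0.16, adjusted p = 0.037) and in LysM-Cre with the compared groups alone (0.09, adjusted p = 0.0151). In the FosKO-labelled libraries at 0.5 h it went from 1 to 2 with the libraries high in 18S, and lay between 1 and 3 with 1 library left out (3 without replicate 3 of 0 h). The count at 1 h in LysM-Cre went from 6 to 2 with the libraries high in 18S, a fit in which that group kept 1 library that is assumed to vary like the others, and lay between 3 (without replicate 3 of 1 h) and 6 with 1 library left out. At 1 h in the FosKO-labelled libraries it lay between 2 and 5 (5 without replicate 3 of 0 h), and the 2 h difference in response gave 1 with no filter and between 1 and 2 on leaving out 1 library, as described for Casp4. The 1 h LPS calls in LysM-Cre that the libraries high in 18S lost were Nlrc4, Aim2, Pycard and Nek7 (adjusted p = 0.204, 0.101, 0.143 and 0.309), and in the FosKO-labelled libraries that of Pycard (adjusted p = 0.0639). Without the filter the 1 h calls of Pycard in both genotypes (adjusted p = 0.0567 and 0.0678) and of Nek7 in LysM-Cre (0.0565) were lost, and with the compared groups alone those of Nlrc4 in LysM-Cre (0.0512) and Pycard in the FosKO-labelled libraries (0.184). The cause was not tested.

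With the replicate number as a block, the count after 0.5 h of LPS in the FosKO-labelled libraries was 2 (Aim2 gained, adjusted p = 0.0246), and likewise 2 with a block within each genotype. The Nlrp3 genotype difference at 0.5 h was also called with the block (-0.15, adjusted p = 0.0312), and the block within genotype added Aim2 at 1 h in the FosKO-labelled libraries (adjusted p = 0.0263). The labels do not say what a number shares, and deviations of same-numbered libraries correlated above 0.1 in every pair in 1 of 10 comparisons, 0.5 h of LPS in the FosKO-labelled libraries (0.191, 0.134 and 0.269).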
